A study of Homo sapiens with 4 samples.

Results

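The SLC12A2 and FBN2 locus was taken as the FOXA2 peaks whose summit lay in chr5:127150000-127950000 of the hg19 build. It held 20 of the 14846 peaks called after GSK2879552 and 25 of the 21308 peaks called after vehicle. The locus was picked for its many peaks in these same lists, and its peaks were chosen by their called position. Their number, strength and overlap are therefore given as a description, with no test. Both groups were PC3 cells, an androgen-independent human prostate cancer line, in medium with 5% charcoal-stripped serum. FOXA2 was immunoprecipitated and the bound DNA sequenced (ChIP-seq). The first group received 50 µM GSK2879552, which inhibits LSD1 (KDM1A), a histone demethylase, for 4 hours, and the second received vehicle. The treatment protocol of the vehicle samples repeats the GSK2879552 text and gives no vehicle treatment of its own, so the groups rest on the agent label, which the titles and descriptions also carry. The labels describe 2 sequencing lanes per group as technical replicates, and both lanes of a group name 1 peak list. Spread between cultures was therefore not measured, and every difference below is one between a pair of libraries. The word ATAC-seq stands in the sample descriptions, but titles and series name FOXA2 ChIP-seq, and the assay was taken to be the second.

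FOXA2 is a forkhead transcription factor that can bind its sites in compact chromatin, and many of its sites lie far from gene starts. LSD1 removes methyl groups from histone H3 lysine and works within larger repressor complexes. SLC12A2 encodes NKCC1, a membrane cotransporter that carries sodium, potassium and chloride ions into the cell and sets chloride level and volume. FBN2 encodes fibrillin-2, a large secreted glycoprotein of extracellular microfibrils, which is prominent during development. Both genes lie in the locus, SLC12A2 at 127.42 to 127.53 Mb and FBN2 at 127.59 to 127.87 Mb, positions that are rounded to 0.01 Mb. SLC12A2 is read toward higher coordinates and FBN2 toward lower ones, so that their 3′ ends face each other. In the order of RefSeq genes (GRCh38.p14), the divergent noncoding RNA gene SLC12A2-DT lies next to the start of SLC12A2, and CCDC192, a protein-coding gene, lies before it. The pseudogene POGLUT2P1 follows the start of SLC12A2 in that order, and the noncoding RNA gene LOC105379167 comes next after FBN2. Peaks were not assigned to these neighbours, because that annotation is in another build.

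No FOXA2 peak was called close to the start of either gene. The nearest summit to the start of SLC12A2 lay 30.5 kb before it after GSK2879552 and 30.6 kb before it after vehicle, and the nearest on the other side lay at 115.0 kb and 79.8 kb. The start of FBN2 had its nearest summit 45.0 kb away on its upstream side in both lists, and the nearest within the gene 185.0 kb away. The 250 bases before each start are shown as promoter sequence, because no peak was called close to either start. They come from RefSeq (GRCh38.p14) and are written 5′ to 3′ on the strand of the gene, at chr5:128083516-128083765 on the plus strand for SLC12A2 and at chr5:128538246-128538495 on the minus strand for FBN2. These positions are in another build than the peaks and cannot be set beside them. Capitals would mark a match to 1 of the motifs searched on both strands, and there were none:
SLC12A2: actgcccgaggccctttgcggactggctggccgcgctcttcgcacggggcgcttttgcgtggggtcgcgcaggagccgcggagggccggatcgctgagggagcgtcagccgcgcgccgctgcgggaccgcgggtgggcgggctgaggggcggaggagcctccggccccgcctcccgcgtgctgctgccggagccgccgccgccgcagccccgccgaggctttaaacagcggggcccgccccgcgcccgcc
FBN2: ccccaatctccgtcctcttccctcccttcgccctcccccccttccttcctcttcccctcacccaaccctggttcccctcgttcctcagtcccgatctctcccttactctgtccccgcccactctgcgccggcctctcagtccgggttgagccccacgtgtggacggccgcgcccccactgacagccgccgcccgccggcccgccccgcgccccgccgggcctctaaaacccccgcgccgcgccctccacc

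The 4 motifs searched do not contain one another. The forkhead motif TGTTTAC occurred in 2.98% of 27305 RefSeq promoters of the same length, and the forkhead variant TGTTTGC occurred in 3.19% of them. A further forkhead variant, spelled TATTTAC, occurred in 2.47%. The AP-1 motif TGANTCA, bound by FOS and JUN proteins, occurred in 6.60%. None of the 4 was found in the SLC12A2 or the FBN2 sequence, which says only that these letters are not in these windows. Both sequences were rich in G and C, at 79.6% for SLC12A2 and 72.8% for FBN2, against a median of 58.0% (interquartile range 46.0 to 67.6) over all promoters. The SLC12A2 sequence held 40 CG pairs and that of FBN2 25. The bases under the peaks themselves were not analysed here.

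**Figure D1:**
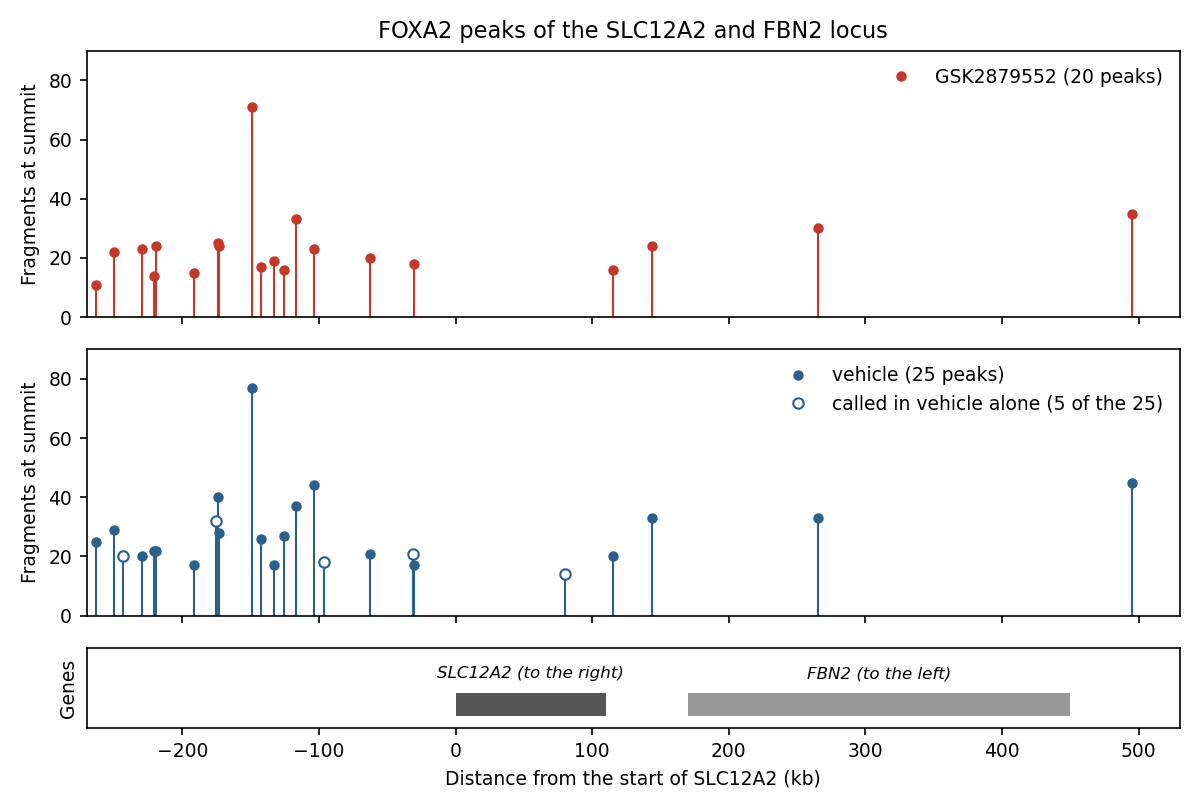
Number of fragments at the summit of each FOXA2 peak (vertical axis) by distance from the start of SLC12A2 in kb (horizontal axis), for GSK2879552 (top, red) and vehicle (middle, blue), above the extent of both genes as rounded in the rule; open circles are the 5 peaks called in vehicle alone. In both lists most peaks lie before SLC12A2, the tallest has 71 fragments after GSK2879552 and 77 after vehicle, and SLC12A2 and FBN2 themselves are nearly empty.

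The peaks were gathered on 1 side of SLC12A2. The 270 kb before the gene held 16 of the 20 GSK2879552 peaks and 20 of the 25 vehicle peaks, which is 5.93 and 7.41 peaks per 100 kb. Over windows of 800 kb placed every 50 kb on chromosomes 1 to 22, X and Y, the mean was 0.492 per 100 kb in the GSK2879552 list and 0.705 in the vehicle list. SLC12A2 itself, 110 kb long, held no GSK2879552 peak and 1 vehicle peak. The 60 kb between the genes held 2 peaks in each list, the 280 kb of FBN2 held 1 in each, and the 80 kb beyond FBN2 held 1 in each. One of the 2 between the genes had its summit 115.0 kb from the start of SLC12A2, so close to the gene's rounded end that it may lie on either side of it. Of all 800 kb windows, 0.484% held at least 20 GSK2879552 peaks, with a median of 3 and a maximum of 49. At least 25 vehicle peaks were held by 0.539%, with a median of 5 and a maximum of 47. Windows this dense were uncommon in both lists, and the locus was chosen for that.

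Neighbouring summits before SLC12A2 lay a median of 13.2 kb apart after GSK2879552 (15 gaps) and 8.92 kb apart after vehicle (19 gaps), against 81.5 kb and 55.3 kb between neighbours over the whole lists. The longest stretch without a summit in the locus, 229.9 kb in both lists, ran from the peak inside FBN2 past that gene's start. Outside the window, the next GSK2879552 summits were 607862 bp below its lower edge and 379069 bp above its upper edge, with 37 and 14 fragments. The next vehicle summits were 28503 bp below and 242855 bp above, with 15 and 10 fragments. Just inside the edges, 6916 bp from the lower and 35007 bp from the upper, GSK2879552 peaks had 11 and 35 fragments, and the vehicle peaks there had 25 and 45. The window thus took in the whole group of GSK2879552 peaks, while a vehicle peak of 15 fragments lay just below it. Vehicle peaks further below were not examined here.

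Fragment numbers at the summits were derived from the deposited fold enrichment and −log10 p of the peak. The strongest peak of the locus in both lists was chr5:127270524-127270985, 149.2 kb before SLC12A2. It had 71 fragments after GSK2879552 (95% Poisson interval 55.5 to 89.6) and 77 after vehicle (60.8 to 96.2), over local backgrounds of 3.41 and 3.62 fragments. In the authors' deposited tables its fold enrichment was 16.3 in the GSK2879552 list and 16.9 in the vehicle list. By −log10 p it ranked 106 of the 14846 GSK2879552 peaks and 249 of the 21308 vehicle peaks. Lists of unequal length make these ranks no measure of change. With 462 bp it was also, together with chr5:127303179-127303640, the widest vehicle peak of the locus. Its fragment numbers lay well inside each other's counting interval.

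The next vehicle peaks by −log10 p lay on both sides of SLC12A2, most of them before it. At chr5:127316555-127316867, 103.3 kb before SLC12A2, 23 fragments were counted after GSK2879552 (14.6 to 34.5) and 44 after vehicle (32.0 to 59.1). Scaled by the lowest background of each list, the ratio was 0.522. At chr5:127914829-127915206, beyond FBN2 and the closest peak to its start, 35 (24.4 to 48.7) and 45 (32.8 to 60.2) were counted, a ratio of 0.776. The first of these sites carried fewer fragments after GSK2879552 by a wider margin than the second. The intervals of the groups overlapped at both, which is no test of a difference. At chr5:127303179-127303640, 33 fragments (22.7 to 46.3) stood against 37 (26.1 to 51.0). At chr5:127246136-127246420, 25 fragments after GSK2879552 stood against 40 after vehicle, a ratio of 0.624.

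The genes' own neighbourhoods held the following strong sites. At chr5:127563641-127564069, in the stretch between the 3′ ends of SLC12A2 and FBN2, 24 fragments were counted after GSK2879552 and 33 after vehicle, a ratio of 0.726. At chr5:127684946-127685222, the peak inside FBN2, 30 and 33 were counted, a ratio of 0.907. This last site, inside the fibrillin gene, differed little between the libraries, and its summits were 5 bp apart. The peak at the rounded end of SLC12A2, chr5:127534870-127535136, had 16 fragments after GSK2879552 and 20 after vehicle. The remaining peaks among the 10 with the highest vehicle −log10 p were chr5:127169937-127170273, with 22 and 29 fragments, chr5:127156677-127156969, with 11 and 25, and chr5:127294201-127294588, with 16 and 27.

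The peak with the lowest ratio lay at the far end of the group. It was chr5:127156677-127156969, 263.2 kb before SLC12A2, with a ratio of 0.439 and a fold enrichment, in the authors' deposited tables, of 3.93 in the GSK2879552 list and 9.22 in the vehicle list. The intervals there, 5.49 to 19.7 after GSK2879552 and 16.2 to 36.9 after vehicle, overlapped. Overlap of separate intervals does not show that the numbers were alike, and the difference was not tested. Its GSK2879552 summit was 92 bp from the vehicle summit. Over the 20 pairs the summits lay a median of 27 bp apart, from 5 to 97, against a median of 23 bp over all pairs.

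**Figure D2:**
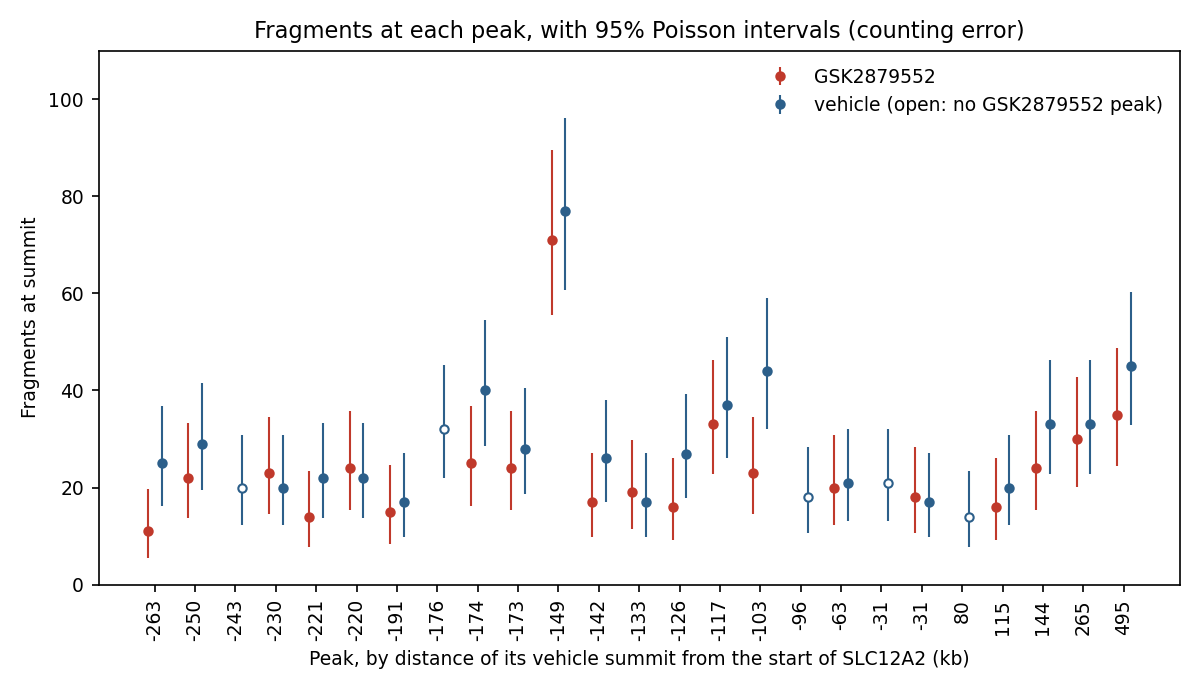
Fragments at the summit (vertical axis) of each of the 25 peaks, ordered and labelled by distance of the vehicle summit from the start of SLC12A2 in kb (horizontal axis), for GSK2879552 (red, left) and vehicle (blue, right; open where no GSK2879552 peak was called), with 95% Poisson intervals for counting error. At the 20 peaks called in both lists the intervals of the groups overlap; the red point is above the blue at 4 of them.

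Every GSK2879552 peak of the locus overlapped a vehicle peak, 20 of 20 (95% interval from 83.2%), against 89.2% of the whole GSK2879552 list. These GSK2879552 peaks had a median of 22.5 fragments against 18 over that list, and their share was not adjusted for strength. Of the vehicle peaks, 20 of 25 (80.0%, 59.3 to 93.2) overlapped a GSK2879552 peak, against 62.0% of the whole vehicle list. The interval of the vehicle share includes the genome-wide share. The vehicle peaks of the locus were stronger than usual, with a median of 25 fragments against 18 over the list, and overlap was commoner among strong peaks. If each of the 25 had the overlapped share of its bin, among 10 equal bins of the vehicle list by −log10 p, 18.2 of them (73.0%) would overlap. All 9 members in the strongest bins, 8 to 10, did overlap, as did 9 of the 13 in bins 5 to 7 and 2 of the 3 in bins 1 to 4.

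**Figure D3:**
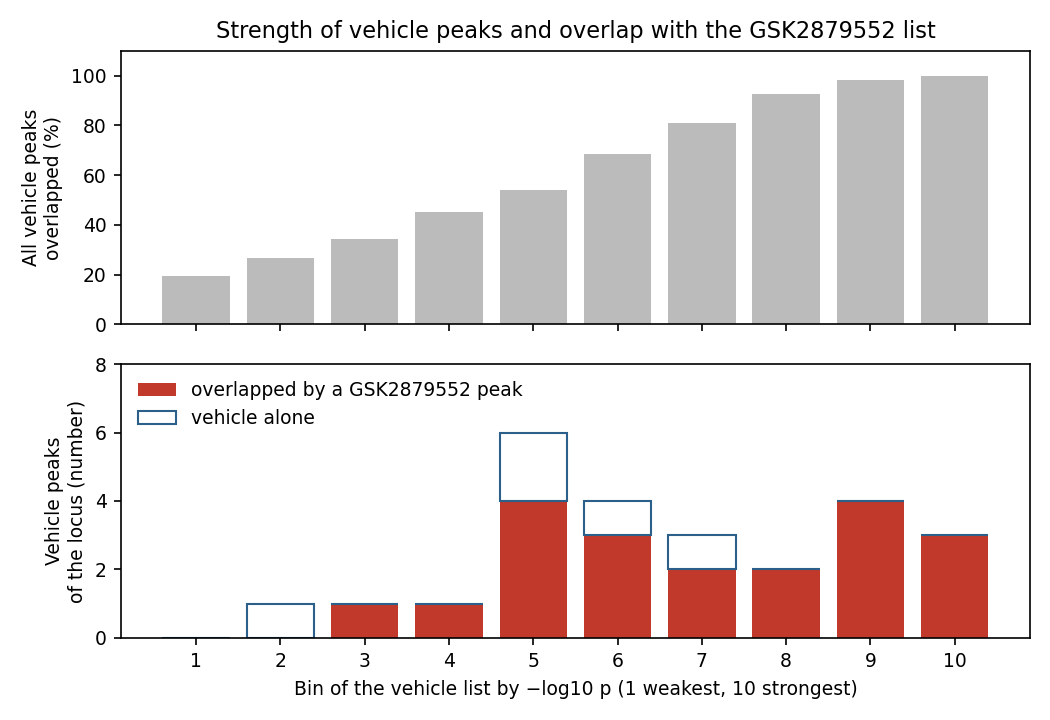
Top, share of all vehicle peaks that overlap a GSK2879552 peak (vertical axis, %) in each of 10 equal bins of the vehicle list by −log10 p (horizontal axis, weakest to strongest); bottom, number of vehicle peaks of the locus in each bin, split into those overlapped (red) and those in vehicle alone (open). The 5 unmatched peaks of the locus lie in bins 2, 5, 6 and 7, where 26.7%, 53.9%, 68.4% and 80.8% of all vehicle peaks are overlapped.

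The 5 peaks called in vehicle alone had 14 to 32 fragments, with a median of 20, against 17 to 77 and a median of 26.5 at the 20 peaks called in both. The strongest, chr5:127244338-127244582, had 32 fragments (21.9 to 45.2) over a background of 3.85, and 13 of the 20 vehicle peaks that were matched had fewer. The nearest GSK2879552 summit was 1826 bp away, in the adjacent pair of peaks. Among all 8091 peaks in vehicle alone, 89 (1.10%) had at least 32 fragments, but their median background was lower, at 1.42. The peak of 32 fragments had a −log10 p of 19.2, close to the median of 19.3 at the 20 matched vehicle peaks. Its fold enrichment in the authors' deposited table was 6.80, below their median of 8.08. Peaks at chr5:127176476-127176792 and chr5:127323809-127324053 had 20 and 18 fragments, and the nearest GSK2879552 summits were 6559 and 7190 bp away. These 3 lay among matched peaks. Within the window, the peaks called after GSK2879552 spanned the same stretch before SLC12A2 as those called after vehicle. Below the window a further peak lay close by in the vehicle list only.

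The other two were the ones nearest to SLC12A2. At chr5:127388468-127388706, 31.4 kb before the gene, 21 vehicle fragments were counted and no GSK2879552 peak was called, with a GSK2879552 summit 902 bp away. That summit belonged to chr5:127389376-127389555, where 18 fragments were counted after GSK2879552 (10.7 to 28.4) and 17 after vehicle (9.90 to 27.2). Of these neighbours, the one with more vehicle fragments was the one without a GSK2879552 peak. The fifth, chr5:127499681-127499881, was the peak within SLC12A2. It had 14 fragments (7.65 to 23.5) and a fold enrichment in the authors' deposited table of 5.13, the lowest of the vehicle peaks here, with 35227 bp to the nearest GSK2879552 summit. The absence of a GSK2879552 peak at these 5 sites is the absence of a call, and whether FOXA2 was bound there was not measured.

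Fragments at the paired summits were somewhat fewer after GSK2879552, by about as much as at all pairs of the lists. Summed over the 20 pairs, 480 fragments (95% Poisson interval 438.0 to 524.9) were counted after GSK2879552 and 600 (552.9 to 650.0) after vehicle. Scaled by the lowest background of each list, the ratio of the sums was 0.798, and over all 13200 pairs of the lists it was also 0.798. Without the strongest peak it was 0.780, from 409 and 523 fragments. The median log2 ratio of the 20 pairs was -0.28 (interquartile range -0.63 to -0.11), against -0.32 over all pairs and -0.32 over the 841 pairs on the rest of chromosome 5. The intervals of these sums cover counting error only. A pair needs a call in both lists. The 5 peaks of the locus called in vehicle alone, and all 8091 such peaks of the list, are therefore not in these ratios.

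Fewer fragments after GSK2879552 were counted at 16 of the 20 pairs (80.0%), without scaling, against 78.0% of all pairs. At least 1.5-fold fewer, scaled, were found at 6 pairs (30.0%), against 24.9% of all pairs, and at least 1.5-fold more at none of the 20, against 0.826%. The 6 had ratios from 0.439 to 0.653. They all lay before SLC12A2, at 103.3 to 263.2 kb from it, where 16 of the 20 pairs were. None of the 20 pairs had counting intervals that lay apart with the lower number after GSK2879552, which was the case at 1.29% of all pairs. Each of these shares was close to that over the whole lists.

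The 4 pairs with more fragments after GSK2879552 also lay before SLC12A2. They were chr5:127190329-127190596, with 23 fragments after GSK2879552 and 20 after vehicle, chr5:127200291-127200526 with 24 and 22, chr5:127286716-127286954 with 19 and 17, and chr5:127389376-127389555 with 18 and 17. They differed by 1 to 3 fragments, far less than the counting intervals. Close neighbours could differ in direction, as chr5:127198997-127199196, next to the second of these, had 14 and 22 fragments. In the pair of peaks at chr5:127246136-127246420 and chr5:127246554-127246786, whose summits lay 388 bp apart after GSK2879552 and 414 bp apart after vehicle, the ratio was 0.624 at the first and 0.855, from 24 and 28 fragments, at the second.

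**Figure D4:**
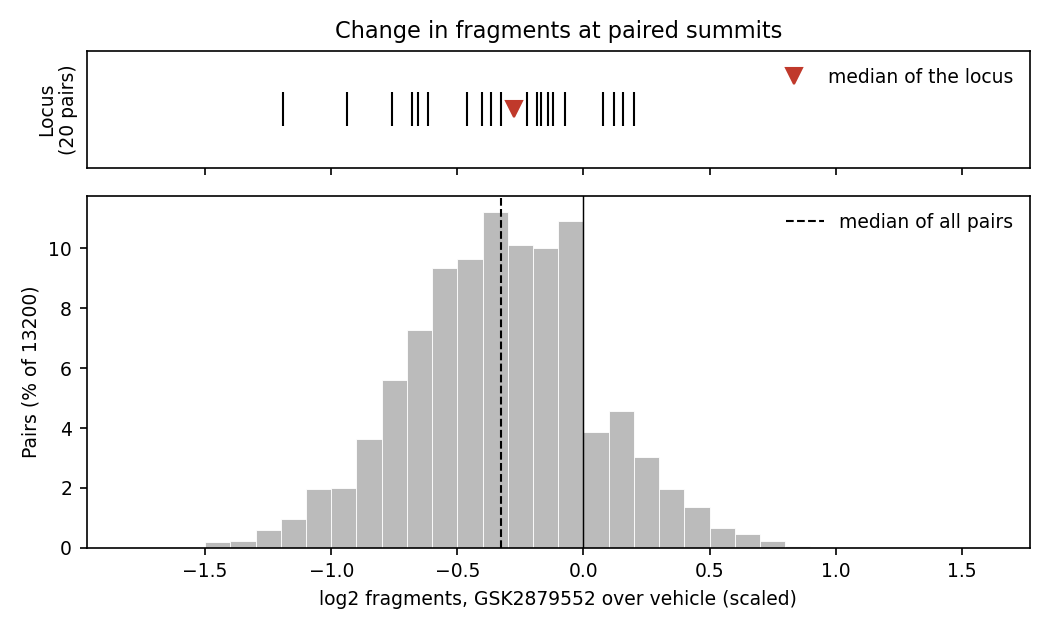
Top, log2 ratio of fragments, GSK2879552 over vehicle, scaled by the lowest background of each list, at each of the 20 paired peaks of the locus (ticks) with their median (triangle, -0.28); bottom, the same ratio over all 13200 pairs as a histogram (vertical axis, % of pairs), with their median (dashed, -0.32). The ticks run from -1.19 to 0.20 and lie within the span of the histogram.

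The summed fragments gave nearly the same ratio on both sides of SLC12A2. The 16 pairs before the gene had 375 fragments (338.0 to 414.9) after GSK2879552 and 469 (427.5 to 513.4) after vehicle, a scaled ratio of 0.798. The other 4 pairs, from the end of SLC12A2 to beyond FBN2, had 105 (85.9 to 127.1) and 131 (109.5 to 155.4), a scaled ratio of 0.800. The medians of the log2 ratios of single pairs were -0.20 before the gene and -0.35 from there on, so medians and sums ordered the 2 stretches differently. The remaining pairs, not named above, were chr5:127228587-127228787 with 15 and 17 fragments, chr5:127277513-127277733 with 17 and 26, and chr5:127357188-127357388 with 20 and 21.

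Local background and peak width also differed between the libraries. Whether they changed pair by pair with the fragments was not tested. The background around the peaks was a median of 2.32 fragments after GSK2879552 and 2.40 after vehicle, against 1.71 and 1.68 over the whole lists. It was lower after GSK2879552 at 16 of the 20 pairs (80.0%, 95% interval 56.3 to 94.3), against 62.8% of all pairs. The pair with the lowest fragment ratio, chr5:127156677-127156969, was among the exceptions, with a background of 2.05 after GSK2879552 and 1.82 after vehicle. In both lists the background was highest around the peaks 149.2 to 175.5 kb before SLC12A2, where it reached 3.41 after GSK2879552 and 3.85 after vehicle. Peaks were narrower after GSK2879552 at 17 of the 20 pairs (85.0%, 62.1 to 96.8), against 75.0% of all pairs, wider at 2, against 24.4%, and equally wide at 1. The median widths in the locus were 232.5 bp for the 20 GSK2879552 peaks and 267 bp for the 25 vehicle peaks. Over the whole lists they were 242 bp and 258 bp, and the narrowest peaks were 168 bp and 175 bp wide, which was taken as the fragment length of each library. Both pairs that were wider after GSK2879552, chr5:127246554-127246786 and chr5:127684946-127685222, had fewer fragments after it, as did 16 of all 20 pairs. The part of the background in the numbers of called peaks was not tested.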

How the data were processed

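FOXA2 ChIP-seq peak lists of PC3 cells were analysed, 1 per group, each covering 2 lanes. The submitters' processing notes name hg19 (GRCh37) and the tools MACS2 2.1.2, SAMtools 0.1.18 and BWA 0.7.2. Which options, threshold or control library applied is not given in the sources used here. Score values as deposited equal the −log10 q times 10, cut to whole numbers. The deposited fold is the ratio of fragments to local background at the summit, with 1 added to both, and the deposited −log10 p and −log10 q come from the authors' peak caller. Peak values cited are the authors' own where so named.

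Fragments and background were solved from fold and −log10 p, read as a Poisson upper tail. A whole number under 1500 matched within 0.001 for 100% of peaks in both lists. Fragment ratios were scaled by the floors of the background, 1.082 after GSK2879552 and 1.079 after vehicle (ratio 1.002). These correspond to 6.44 and 6.17 reads per kb if no control library was used. The floors join read depth with fragment length (168 and 175 bp), and scaling by reads per kb alone was not run. Peaks were shared when intervals overlapped by at least 1 bp, and mutual best partners formed pairs. Shares carry exact Clopper-Pearson intervals and counts exact Poisson intervals, which cover counting error only. Fragment recovery was checked on values simulated with the same formula, and the overlap and pairing steps on random subsets of the real lists. These checks concern the code and do not test the formula. Python 3.11.15, SciPy 1.17.1 and pandas 2.3.3 were used. All peaks of the locus could be named. The members, lists, motifs and alternatives were chosen with earlier results of these data known. Counts near related cotransporter and microfibril genes, and motifs under peaks, were not run for want of an hg19 annotation or genome.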

Additional observations from a re-analysis of the deposited data

How the results depend on the processing

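The ratio of peak numbers in the locus was 0.800, 0.720 with both lists held to a −log10 q of at least 5 (18 and 25 peaks) and 0.706 at 10 (12 and 17 peaks). The overlapped share of vehicle peaks was 80.0%, then 72.0% and 64.7%, and that of GSK2879552 peaks 100%, then 100% and 91.7%. Stricter thresholds leave fewer peaks by construction. The median log2 fragment ratio stayed below 0 throughout, between -0.28 and -0.20. Each of these values lay within the interval of the value from the lists as deposited, as did all 20 values under the alternatives. Those intervals were wide, 0.421 to 1.5 for the ratio of peak numbers and -0.616 to -0.12 for the median log2 ratio. Several alternatives also reused the same 20 pairs, so little could have moved. Shares of the whole lists at the stricter thresholds are not given here. Membership by interval and stricter overlap rules (50% of both intervals, or summits within 100 bp) gave the same counts. Fragments without scaling gave -0.27, and those above the local background -0.28. No paired analysis was possible because the lanes are pooled in 1 list per group, and for the same reason no lane could be left out. With 25 and 20 peaks, a share is known only to within about the intervals given, and 14 to 45 fragments at most summits leave wide counting intervals.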
